A study of Mus musculus with 12 samples.

Results

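The 38 genes described here are interferon-stimulated genes, the genes that a cell switches on when interferon reaches its receptors. They were taken by symbol from a list of known targets, and the list was chosen with earlier results of these data known. The members comprised 29 targets of type I interferon, 7 GTPases named for their induction by interferon-gamma, and Irf1 and Cxcl10, which both kinds of interferon induce. Of the 38, 36 had a row in both count tables, which list 23829 genes at 20 weeks and 23777 at 28 weeks. Mx1 and Mx2 were not analysed here. RNA was sequenced from primary podocytes, the epithelial cells that wrap the capillaries of the kidney filter, taken from mice with diabetes brought on by a high-fat diet and streptozotocin (HFD/STZ). The knockouts were Cre+/Nsd2fl/fl mice in which Nsd2, a histone methyltransferase acting on lysine 36 of histone H3, is deleted in podocytes; the controls were Cre-/Nsd2fl/fl mice with the same floxed alleles and no Cre. Groups of 3 libraries came from knockouts and controls at 20 weeks of age and from knockouts and controls at 28 weeks, 12 in all, which the series describes as an early and an advanced stage of diabetic kidney disease. Every group was diabetic, so no value here compares diabetic with healthy podocytes, and the labels do not name the promoter that drives Cre.

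Interferons act through receptors that activate JAK kinases. Type I interferons, made by many cells on sensing foreign or misplaced nucleic acid, activate a complex called ISGF3, which includes Stat2 and Irf9 and binds a promoter element known as the interferon-stimulated response element (ISRE). Interferon-gamma, made mainly by lymphocytes, acts through another promoter element, the gamma-activated site (GAS). The targets of both overlap: many carry both elements, and the guanylate-binding proteins (Gbp) and immunity-related GTPases, which coat and break up the vacuoles of intracellular microbes, also respond to type I interferon. In kidney, interferon-stimulated genes have been described in lupus nephritis and in glomerular injury that follows viral infection.

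Promoter sequence shows what the members share apart from their names. The windows below are 60 bases from upstream of the RefSeq start site (GRCm38.p6), on the strand of the gene. They cover the called genes whose promoter window held the ISRE core, and Ifit3, Ifit3b, Rsad2 and Igtp, which were not called. Of the other called genes, Ifi35 had a window without the core, and Ifi27 and Usp18 had no window. Capitals mark each match to the ISRE core, GAAANNGAAA, on either strand; overlapping matches run together.
Isg15, chr4:156200850-156200909, minus strand: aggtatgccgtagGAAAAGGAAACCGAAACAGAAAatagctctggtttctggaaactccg
Ifit1, chr19:34640779-34640838, plus strand: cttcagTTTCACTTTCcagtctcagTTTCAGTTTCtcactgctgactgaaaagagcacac
Ddx60, chr8:61928027-61928086, plus strand: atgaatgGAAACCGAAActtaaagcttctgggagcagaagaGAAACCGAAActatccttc
Ifit3, chr19:34583382-34583441, plus strand: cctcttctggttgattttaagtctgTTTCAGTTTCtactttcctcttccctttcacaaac
Ifit3b, chr19:34607778-34607837, plus strand: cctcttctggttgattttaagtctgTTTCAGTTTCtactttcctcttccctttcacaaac
Rsad2, chr12:26456538-26456597, minus strand: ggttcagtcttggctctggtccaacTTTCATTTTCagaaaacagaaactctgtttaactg
Tgtp1, chr11:48992289-48992348, minus strand: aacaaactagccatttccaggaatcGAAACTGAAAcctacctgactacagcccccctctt
Igtp, chr11:58199496-58199555, plus strand: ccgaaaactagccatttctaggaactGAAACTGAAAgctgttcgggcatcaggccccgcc
Gbp2, chr3:142620579-142620638, plus strand: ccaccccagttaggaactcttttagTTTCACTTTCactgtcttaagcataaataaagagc
Irgm1, chr11:48871421-48871480, minus strand: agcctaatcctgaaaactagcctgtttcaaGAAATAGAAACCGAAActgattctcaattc

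Of the 29 members with a promoter window of 300 bases (250 before and 50 after the start site), 20 held GAAANNGAAA (69%), against 3.44% of the 32851 RefSeq windows. The GAS core TTCNNNGAA, which reads the same on both strands and can overlap an ISRE match, as it does in Bst2, was present in 10 of the 29 (34.5%), against 8.3% of all windows. The ISRE core was in 13 of 21 type I targets and in 6 of 6 GTPases with a window, and the GAS core in 6 of 21 and in 3 of 6. Genes with and without a call carried the ISRE core: Isg15, Ifit1, Ddx60, Tgtp1, Gbp2 and Irgm1 passed the test at 28 weeks, whereas Ifit3, Ifit3b, Rsad2 and Igtp, whose windows carry the same core, did not at either age. The printed windows of Ifit3 and Ifit3b are the same sequence. Matches are letters only and do not show that a factor binds.

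Libraries held between 31405349 and 38989180 counts, at which a count of 0 allows a level of up to 0.0769 to 0.0955 CPM (counts-per-million; the limit is 3 counts and covers counting error only). Levels are given as CPM on library sizes scaled by TMM, as mean ± SD over 3 libraries. Fold changes are log2 ratios, knockout over control, each with its SE. A gene was called at an adjusted p below 0.05 in edgeR's quasi-likelihood test over all genes tested. Nsd2 itself had 51.7, 34.1 and 45 CPM in knockout libraries against 94.2, 66.6 and 79 CPM in controls at 20 weeks, and 35.2, 35.2 and 42.9 CPM in knockouts against 87.2, 77.6 and 80.1 CPM in controls at 28 weeks. It was lower in every knockout library of each age (log2 fold change -0.88, adjusted p = 0.040, and -1.11, adjusted p = 0.0043). Separate mice are not stated for the 3 libraries within a group, so p-values reflect variation among libraries that may be technical. At 28 weeks control libraries 2 and 3 were nearly the same: their biological coefficient of variation was 0.0472, against 0.219 to 0.414 in the 11 other pairs of replicates. They differed by more than sampling noise and are counted as separate libraries, and each call of a member at 28 weeks is also given with their counts summed to 1 library. Libraries of a group also stood apart in some epithelial markers, and these did not all order the libraries alike. Krt8, a keratin of tubule and parietal epithelium, had 980.3, 54.3 and 59.8 CPM in knockout libraries and 174.9, 1162 and 1471 CPM in controls at 20 weeks, and 5545, 29.9 and 196.4 CPM in knockouts against 110.9, 2352 and 2376 CPM in controls at 28 weeks. Cdh1 was instead highest in library 1 of the 28-week controls (805, 509 and 521 CPM), and Krt19 was even there (424, 420 and 435 CPM). Krt7 and Krt18 were lower in every knockout library than in every control at both ages. The podocyte markers Wt1 and Synpo were present in every library, while Nphs1, the slit diaphragm protein nephrin, was at 0.914 to 15.2 CPM.

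Per transcript length, the most abundant members were the antiviral membrane proteins Ifitm3, Ifi27 and Bst2. Over the 12 libraries Ifitm3 averaged 91.6 ± 35.8 FPKM, Ifi27 80.3 ± 39.4 FPKM and Bst2 69.6 ± 20.1 FPKM (SD, n = 12), intervals that overlap. Irgm1 followed at 59.0 ± 15.5 FPKM, above every other GTPase; Gbp2 averaged 5.84 FPKM, Igtp 4.00 FPKM and Tgtp1 3.71 FPKM. This order pools knockouts with controls. In controls alone Ifi27 averaged 50.3 FPKM at 20 weeks and 43.7 FPKM at 28 weeks, against 53.5 and 43.9 FPKM for Irgm1 and 78.9 and 72.6 FPKM for Bst2. At the low end Oas2 and Oas3 averaged 0.0232 and 0.0103 FPKM over the 12 libraries. Oas2, Oas3 and, at 20 weeks, Zbp1 had too few counts to be tested, which left 33 members tested at 20 weeks and 34 at 28 weeks. A member could enter the test through 3 libraries above about 0.275 CPM at 20 weeks or 0.27 CPM at 28 weeks: Ifit1 at 20 weeks, Ddx60 at both ages and Zbp1 at 28 weeks reached that level in 3 knockout libraries but only 2 control libraries. Rsad2 at 20 weeks reached it in 3 control libraries but only 2 knockout libraries.

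At 20 weeks 3 members were higher in knockouts and none was lower, and at 28 weeks 9 were higher and none was lower. Tgtp1, Ifi27 and Ifit1 were higher at both ages; Isg15, Usp18, Ddx60, Ifi35, Gbp2 and Irgm1 passed at 28 weeks alone. At 20 weeks the 3 of 33 members (9.09%) stand against 4.79% of all genes called higher, and the 0 lower members against 5.13% called lower; at an unadjusted p below 0.05, edgeR gave 9 higher and 3 lower, against 12.1% and 13% of all genes. DESeq2 called 6 members higher at 20 weeks (Gbp2, Irf9 and Usp18 as well) and 2 lower (Cxcl10 and Rsad2), against 8.13% and 8.23% of all genes. At 28 weeks the 9 of 34 (26.5%) stand against 9.33% of all genes called higher, and the 0 lower against 11.9% called lower; at an unadjusted p below 0.05 there were 14 higher and 0 lower, against 16.2% and 18.6% of all genes. DESeq2 called 13 members higher at 28 weeks (Dhx58, Iigp1, Irf7 and Xaf1 as well) and 0 lower, against 13.8% and 16% of all genes. Called higher at both ages were 3 members of the 33 tested at both, against 2.16% of all genes tested at both. The median log2 fold change of the tested members was 0.26 at 20 weeks, against 0.01 over all genes, and 0.58 at 28 weeks, against 0.07 over all genes. These are bulk samples, in which more cells of a type and more RNA per cell cannot be told apart.

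**Figure D1:**
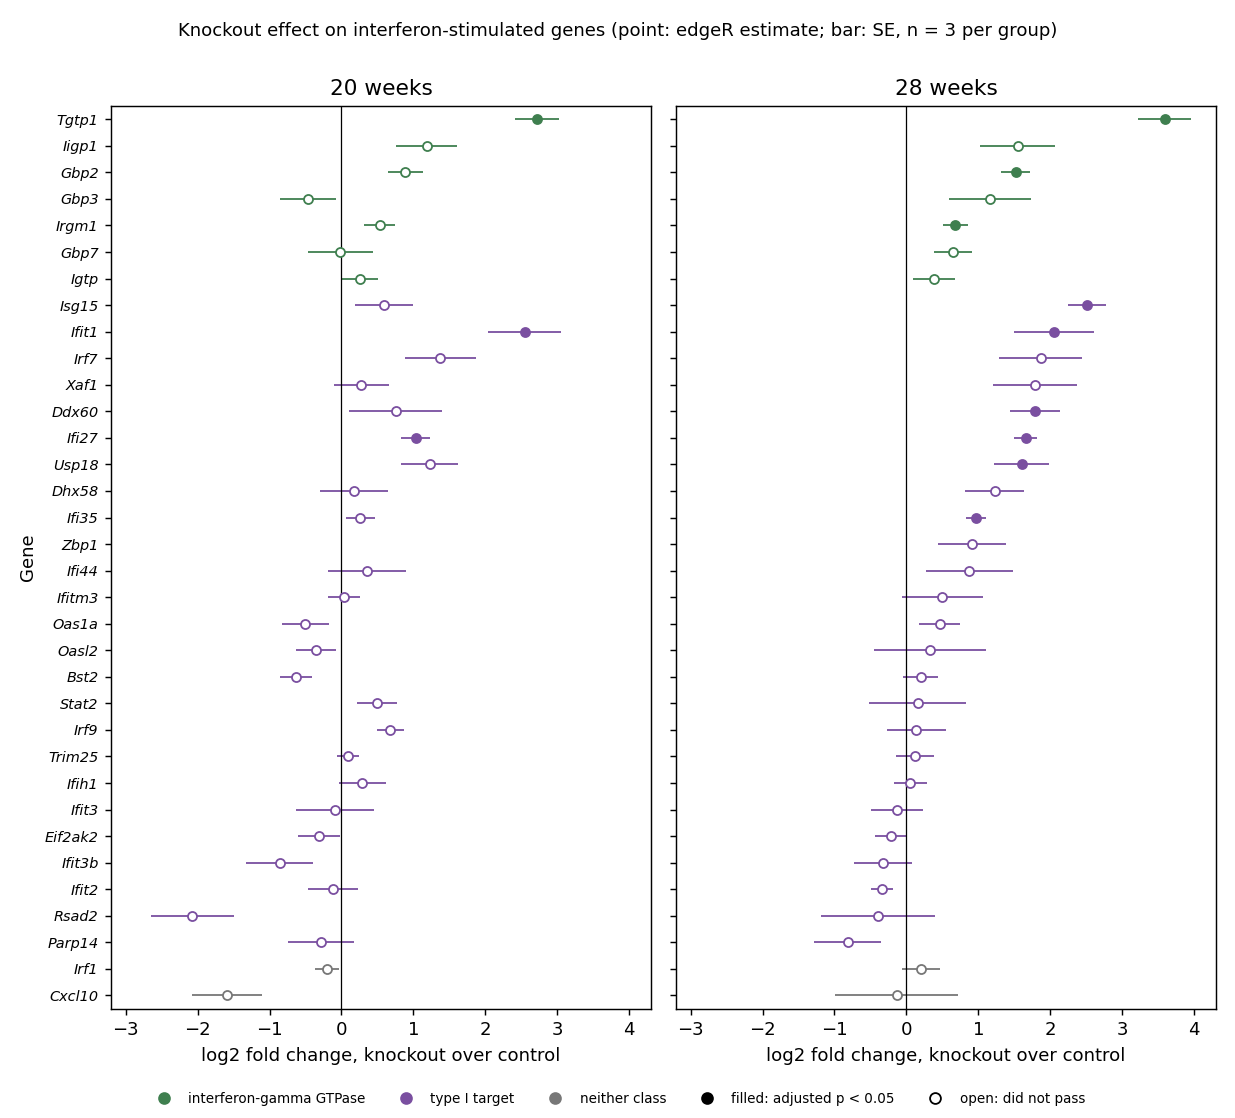
Log2 fold change of knockout over control (x axis) for each tested member (y axis), at 20 weeks on the left and 28 weeks on the right; points are edgeR estimates, bars are SE (n = 3 libraries per group), and filled points passed an adjusted p of 0.05. Filled points number 3 at 20 weeks and 9 at 28 weeks, all right of 0, and all 7 GTPases lie right of 0 at 28 weeks.

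Without regard to p, every knockout library lay above every control library for 8 of 33 members at 20 weeks and for 13 of 34 at 28 weeks, against 15.5% and 19.3% of all genes tested. The opposite order, every knockout library below every control, held for 2 members at 20 weeks (Rsad2 and Bst2) and for 1 at 28 weeks (Ifit2), against 16.7% and 22.8% of all genes. Every knockout library was above every control at both ages for 7 of 33 members (21.2%), against 7% of all genes tested at both, and the 7 included all 3 that were called at both.

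Among the GTPases, Tgtp1, an immunity-related GTPase that binds to vacuoles around intracellular parasites, differed most. Tgtp1 had 13, 14.5 and 16.9 CPM in knockout libraries against 2.98, 1.52 and 2.21 CPM in control libraries at 20 weeks, a log2 fold change of 2.72 (SE 0.30, adjusted p = 0.0032). At 28 weeks Tgtp1 had 13.4, 30.4 and 27.1 CPM in knockouts against 1.54, 2.29 and 2.03 CPM in controls, a log2 fold change of 3.59 (SE 0.37, adjusted p = 0.0034; 3.66 and 0.024 with control libraries 2 and 3 summed). The lowest knockout library was 4.37 times the highest control library at 20 weeks and 5.85 times at 28 weeks. Tgtp1 lies at chr11:48985327-48994172 (GRCm38, minus strand) beside its near copy Tgtp2: 79.4% of the 50-base stretches of Tgtp1 transcripts also occur in Tgtp2, so reads may have been split between them. Summed over both genes the level was 17.4 ± 2.85 CPM in knockouts against 2.99 ± 1.07 CPM in controls at 20 weeks. The summed level at 28 weeks was 29.7 ± 12.8 CPM in knockouts against 2.61 ± 0.25 CPM in controls (SD, n = 3 each).

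Gbp2, a guanylate-binding protein, had 16.4, 18.1 and 14.2 CPM in knockouts against 6.82, 8.24 and 11.2 CPM in controls at 20 weeks. The groups did not overlap, but the log2 fold change of 0.89 (SE 0.24) did not pass (adjusted p = 0.057). At 28 weeks Gbp2 had 18.9, 24.7 and 29.9 CPM in knockouts against 9.19, 8.05 and 8.38 CPM in controls, and the log2 fold change of 1.52 (SE 0.20) passed (adjusted p = 0.0058; 1.49 and 0.035 with controls 2 and 3 summed). Irgm1, which regulates the other immunity-related GTPases, had 213, 201 and 204 CPM in knockouts against 192, 111 and 124 CPM in controls at 20 weeks (log2 fold change 0.53, SE 0.22, adjusted p = 0.18). At 28 weeks Irgm1 had 165, 164 and 239 CPM in knockouts against 121, 119 and 115 CPM in controls. Its log2 fold change of 0.68 (SE 0.17) passed with an adjusted p of 0.036 and was lost with controls 2 and 3 summed (0.67, adjusted p = 0.13). Control library 1 at 20 weeks, at 192 CPM, lay close to the knockouts for this gene.

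Igtp, a relative of Irgm1 that guards host membranes, overlapped between the groups at both ages. It had 7.86, 9.11 and 7.11 CPM in knockouts against 5.31, 8.07 and 6.69 CPM in controls at 20 weeks. Its 28-week levels were 8.22, 9.49 and 12.5 CPM in knockouts against 10.7, 6.22 and 6.27 CPM in controls. The log2 fold changes were 0.26 (SE 0.25, adjusted p = 0.59) and 0.38 (SE 0.29, adjusted p = 0.42). The remaining GTPases did not pass at either age. Iigp1 averaged 2.65 ± 1.35 CPM in knockouts and 0.904 ± 0.384 CPM in controls at 28 weeks (log2 fold change 1.55, adjusted p = 0.084), Gbp3 4.70 ± 3.02 CPM in knockouts and 2.10 ± 0.69 CPM in controls (1.16, 0.21), and Gbp7 9.05 ± 2.16 CPM in knockouts and 5.75 ± 1.17 CPM in controls (0.65, 0.13; SD, n = 3 each). For Iigp1 and Gbp7 every knockout library was above every control at 28 weeks.

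Of the type I targets, Isg15 and its protease Usp18 passed at 28 weeks. Isg15, a ubiquitin-like protein that is attached to other proteins, had 27.9, 16 and 30.2 CPM in knockouts against 4.25, 4.15 and 4.57 CPM in controls at 28 weeks (log2 fold change 2.51, SE 0.27, adjusted p = 0.0037; 2.52 and 0.026 with controls 2 and 3 summed). At 20 weeks Isg15 had 3.49, 9.85 and 10.8 CPM in knockouts against 4.98, 5.9 and 5.19 CPM in controls, with knockout library 1 below all controls (log2 fold change 0.59, SE 0.41, adjusted p = 0.43; 0.95 and 0.042 without that library). Usp18, which removes Isg15 from proteins and damps the type I receptor, had 6.05, 8.24 and 11.8 CPM in knockouts against 4.17, 2 and 2.41 CPM in controls at 28 weeks (log2 fold change 1.60, SE 0.38, adjusted p = 0.030; 1.45 and 0.11 with controls 2 and 3 summed). Its levels at 20 weeks were 2.82, 4.4 and 2.73 CPM in knockouts against 0.856, 1.46 and 1.92 CPM in controls, also without overlap, and did not pass (log2 fold change 1.23, SE 0.40, adjusted p = 0.097). Trim25, a ubiquitin ligase that can also attach Isg15, did not pass at either age. It averaged 48.3 ± 3.13 CPM in knockouts and 45.2 ± 2.91 CPM in controls at 20 weeks, then 50.3 ± 16.4 CPM in knockouts and 46.3 ± 9.24 CPM in controls at 28 weeks (SD, n = 3 each).

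Ifi27, a small membrane protein and the called gene with the highest mean FPKM over the 12 libraries, had 105, 147 and 145 CPM in knockouts against 53.7, 73.8 and 66.3 CPM in controls at 20 weeks. It had 139, 203 and 190 CPM in knockouts against 53.6, 57.5 and 57.2 CPM in controls at 28 weeks. The groups did not overlap at either age, and the log2 fold changes were 1.03 (SE 0.20, adjusted p = 0.019) and 1.66 (SE 0.16, adjusted p = 0.0033; 1.67 and 0.024 with controls 2 and 3 summed). Ifi35, a leucine zipper protein that binds the interferon-induced factor Nmi, had 27.5, 37.3 and 32.3 CPM in knockouts against 23.9, 32.3 and 24.7 CPM in controls at 20 weeks, which overlap (log2 fold change 0.27, SE 0.20, adjusted p = 0.47). At 28 weeks Ifi35 had 48.9, 37.9 and 46.8 CPM in knockouts against 21.7, 24.2 and 22.5 CPM in controls, with no overlap. It passed (log2 fold change 0.96, SE 0.14, adjusted p = 0.0071; 0.98 and 0.038 with controls 2 and 3 summed). An exon of Ifi35 overlaps Gm11626 on the other strand, and whether counting used strand is not stated. Such overlaps are not particular to Ifi35: Usp18 (with Gm44148), Gbp2 (Mir6381) and Irf7 (Phrf1) have them too, among others. Tgtp1 shares exon bases with Gm12185 on its own strand, and Igtp with Irgm2.

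**Figure D2:**
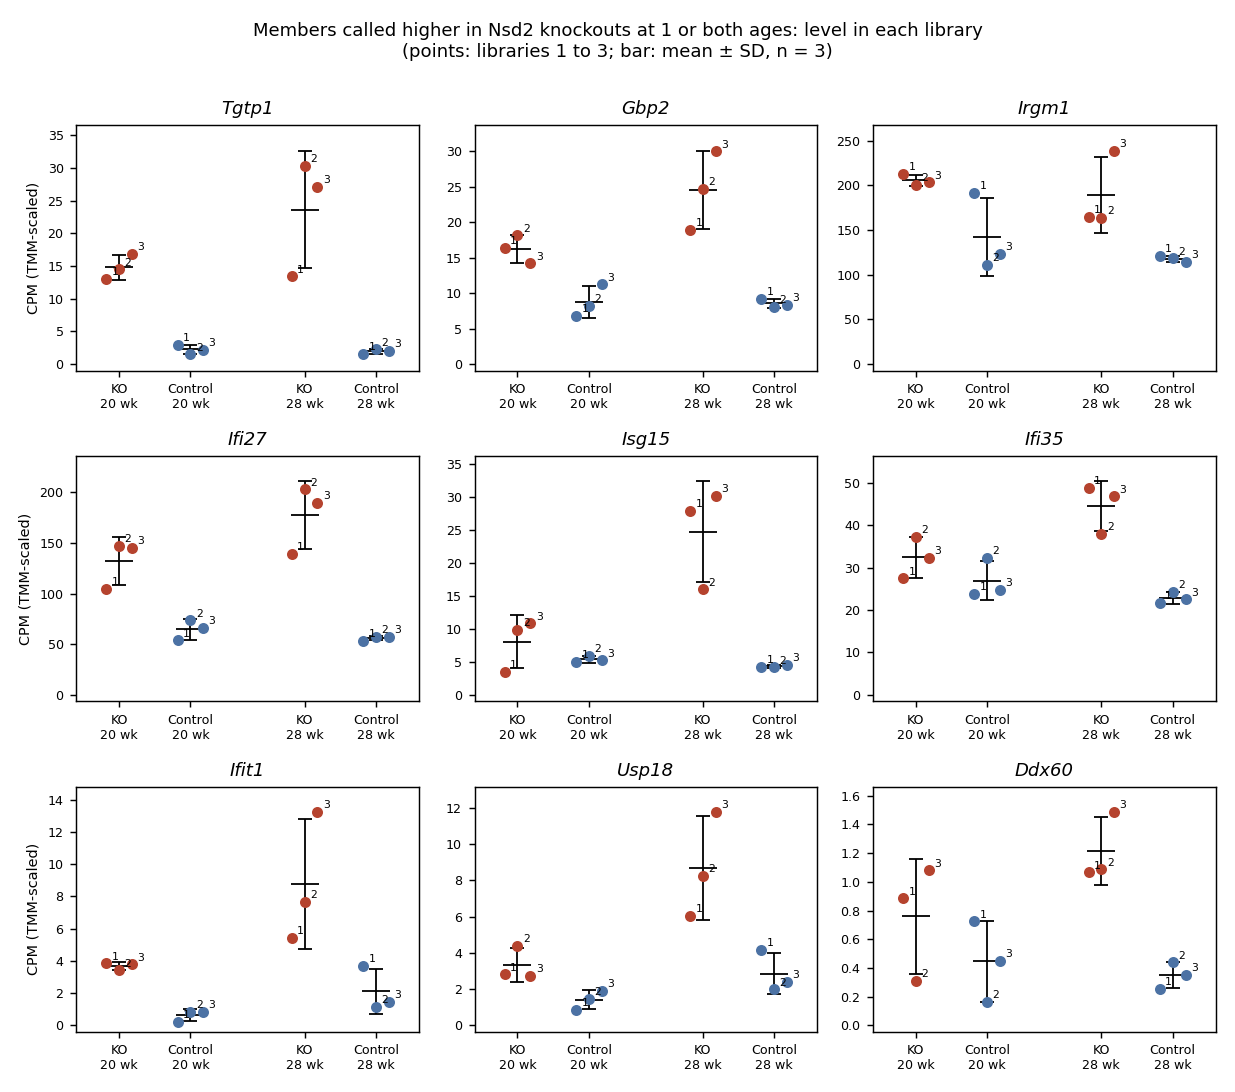
Level in each library (y axis, CPM on TMM-scaled library sizes, one scale per gene) of the 9 members called higher in knockouts at 1 or both ages; points numbered 1 to 3 are libraries, bars are mean ± SD (n = 3). The knockout libraries of Tgtp1 at 28 weeks lie between 13.4 and 30.4 CPM and its controls between 1.54 and 2.29 CPM; for Isg15 the groups separate at 28 weeks and overlap at 20 weeks.

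The proteins that act on foreign RNA were mixed. Ifit1, which binds viral RNA with an unmethylated cap, had 3.84, 3.41 and 3.78 CPM in knockouts against 0.207, 0.827 and 0.843 CPM in controls at 20 weeks (log2 fold change 2.55, SE 0.51, adjusted p = 0.021; 392 counts over the knockouts and 70 over the controls). At 28 weeks Ifit1 had 5.42, 7.65 and 13.2 CPM in knockouts against 3.71, 1.17 and 1.46 CPM in controls (log2 fold change 2.05, SE 0.55, adjusted p = 0.043; 1.81 and 0.13 with controls 2 and 3 summed). The groups did not overlap at either age. Its neighbours in the Ifit cluster on chromosome 19 did not pass: Ifit2 averaged 24.6 ± 3.77 CPM in knockouts and 31.2 ± 1.86 CPM in controls at 28 weeks, Ifit3 43.8 ± 22.3 CPM in knockouts and 47.9 ± 7.02 CPM in controls, and Ifit3b 14.3 ± 8.36 CPM in knockouts and 18 ± 2.52 CPM in controls (SD, n = 3 each). All 3 had log2 fold changes below 0 at both ages, from -0.86 for Ifit3b at 20 weeks to -0.10 for Ifit3 at 20 weeks. Ifit3 and Ifit3b share 51.2% of the 50-base stretches of Ifit3, and their summed level was 58.1 ± 30.7 CPM in knockouts and 65.9 ± 7.98 CPM in controls at 28 weeks.

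Ddx60, a helicase that assists the RNA sensors, was scarce. It had 1.07, 1.09 and 1.49 CPM in knockouts against 0.256, 0.439 and 0.351 CPM in controls at 28 weeks, 119 counts over the knockouts and 42 over the controls, and passed (log2 fold change 1.79, SE 0.35, adjusted p = 0.016; 1.86 and 0.062 with controls 2 and 3 summed). At 20 weeks it had 0.885, 0.312 and 1.08 CPM in knockouts against 0.726, 0.165 and 0.448 CPM in controls, which overlap (log2 fold change 0.76, SE 0.65, adjusted p = 0.54). The cytosolic RNA sensors themselves did not pass. Ifih1 (MDA5) averaged 20.1 ± 5.75 CPM in knockouts and 19.3 ± 1.34 CPM in controls at 28 weeks, and Dhx58 (LGP2) 1.95 ± 0.488 CPM in knockouts and 0.831 ± 0.345 CPM in controls (log2 fold change 1.23, SE 0.41, adjusted p = 0.083; SD, n = 3 each). Zbp1, which recognises nucleic acid in the Z form, had 53 counts over the knockouts and 35 over the controls at 28 weeks. The oligoadenylate synthetases Oas1a and Oasl2 and the RNA-dependent kinase Eif2ak2 (PKR) had log2 fold changes between -0.50 and 0.46 at the 2 ages, with adjusted p between 0.31 and 0.81. Oas1a shares 57.6% of its 50-base stretches with Oas1g, so reads may have been split between them. Oas1g had 17 counts over the knockouts and 80 over the controls at 20 weeks, and 49 and 90 at 28 weeks.

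The members that encode transcription factors of the response, Stat2 and Irf9 of ISGF3 and the interferon regulatory factors, did not pass in edgeR. Stat2 had 15.4, 24.8 and 21.8 CPM in knockouts against 19.5, 13.6 and 10.8 CPM in controls at 20 weeks. The 28-week levels of Stat2 were 11.5, 17.2 and 36.8 CPM in knockouts against 38.9, 10 and 9.94 CPM in controls, with knockout library 3 and control library 1 both high. Irf9 showed the same arrangement at 28 weeks, with 16.1, 19.6 and 37.2 CPM in knockouts against 33, 17 and 16.3 CPM in controls. Its levels at 20 weeks, 27.4, 32 and 25.4 CPM in knockouts against 20.2, 17.4 and 15.3 CPM in controls, did not overlap (log2 fold change 0.68, SE 0.19, adjusted p = 0.057; 0.67 and 0.013 in DESeq2).

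Irf7, the factor that amplifies type I interferon production, had 1.69, 7.21 and 5.52 CPM in knockouts against 1.79, 2.04 and 1.71 CPM in controls at 20 weeks. In those knockouts library 1 was below every control (log2 fold change 1.38, SE 0.50, adjusted p = 0.13; 1.79 and 0.0087 without that library). At 28 weeks Irf7 had 14.4, 4.29 and 11.5 CPM in knockouts against 4.61, 1.9 and 1.73 CPM in controls, with a log2 fold change of 1.87 (SE 0.58, adjusted p = 0.065; 0.0039 in DESeq2). Irf1, an early target of both kinds of interferon, had 35.3, 38.3 and 29.5 CPM in knockouts against 40.6, 38.2 and 39.6 CPM in controls at 20 weeks. Irf1 levels at 28 weeks were 26.1, 37.2 and 49.8 CPM in knockouts against 39.9, 29.9 and 28.2 CPM in controls. Its groups overlapped at both ages (log2 fold change -0.20 at 20 weeks and 0.21 at 28 weeks). Cxcl10, a chemokine for T cells, averaged 3.2 ± 1.26 CPM in knockouts and 9.67 ± 5.42 CPM in controls at 20 weeks (log2 fold change -1.60, SE 0.49, adjusted p = 0.081), and 8.89 ± 10.6 CPM in knockouts and 9.78 ± 3.77 CPM in controls at 28 weeks (SD, n = 3 each). Without control library 3, edgeR called Cxcl10, Rsad2 and Ifit3b lower at 20 weeks (3.83% of all genes were), and without knockout library 1 Cxcl10 alone (8.13%).

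The restriction factors, which block steps of viral entry or release, gave no call. Ifitm3, which hinders fusion of viruses with endosomes, had 51.9, 67.6 and 66.3 CPM in knockouts against 68.3, 69.7 and 43.2 CPM in controls at 20 weeks. Later, at 28 weeks, Ifitm3 had 23.4, 67 and 113 CPM in knockouts against 72.1, 35.5 and 35.8 CPM in controls. The groups overlapped at both ages (log2 fold changes 0.04 and 0.50). Bst2 (tetherin), which holds budding virus at the cell surface, had 35, 45.3 and 39.4 CPM in knockouts against 57.8, 80.4 and 47.2 CPM in controls at 20 weeks, every knockout library below every control (log2 fold change -0.63, SE 0.23, adjusted p = 0.13). At 28 weeks Bst2 had 63.6, 45.2 and 88.1 CPM in knockouts against 63, 52.5 and 55.7 CPM in controls, which overlap (log2 fold change 0.20, adjusted p = 0.62). Rsad2 (viperin), which makes a nucleotide that stops viral polymerases, was at 0.386 ± 0.119 CPM in knockouts and 1.63 ± 1.04 CPM in controls at 20 weeks, 41 counts over the knockouts and 185 over the controls (log2 fold change -2.07, SE 0.58, adjusted p = 0.061; SD, n = 3 each). Among the remaining targets, Xaf1, a partner of the apoptosis inhibitor Xiap, averaged 8.15 ± 5.14 CPM in knockouts and 2.36 ± 0.271 CPM in controls at 28 weeks (log2 fold change 1.79, adjusted p = 0.078). Ifi44 and the ADP-ribosyltransferase Parp14 had log2 fold changes of 0.87 and -0.81 at 28 weeks and did not pass.

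Across the classes, 2 of 24 tested type I targets were called higher at 20 weeks and 6 of 25 at 28 weeks, and 1 and 3 of the 7 GTPases, against 4.79% of all genes at 20 weeks and 9.33% at 28 weeks. The median log2 fold change of the GTPases was 0.53 at 20 weeks and 1.16 at 28 weeks, and that of the type I targets 0.22 and 0.46. The type I median minus the GTPase median was -0.31 at 20 weeks and -0.70 at 28 weeks. These are descriptions of genes chosen by name, with no test. Taken library by library, as the median log2 difference from the control mean of the age, the GTPases stood at 0.62, 0.44 and 0.56 in the 20-week knockouts and at 0.48, 1.09 and 1.67 in the 28-week knockouts. The type I targets stood at -0.12, 0.13 and 0.30 in the 20-week knockouts and at 0.16, 0.02 and 1.02 in the 28-week knockouts. In each knockout library the type I median was below the GTPase median: the difference ran from -0.74 to -0.26 in the 3 knockout libraries at 20 weeks and from -1.07 to -0.32 at 28 weeks. In the control libraries it ran from -0.15 to 0.18 at 20 weeks and from -0.09 to 0.11 at 28 weeks. Control values lie near 0 by construction, because the control mean was subtracted, so they show spread only. The SD of the difference over the 3 knockout libraries was 0.26 at 20 weeks and 0.38 at 28 weeks. These libraries share the same control mean, so the SD leaves out error in that mean. Among pathway genes outside the members the order of the classes was reversed. Their medians at 20 and 28 weeks were 0.03 and 0.37 for type I targets and -0.08 and -0.06 for interferon-gamma GTPases.

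**Figure D3:**
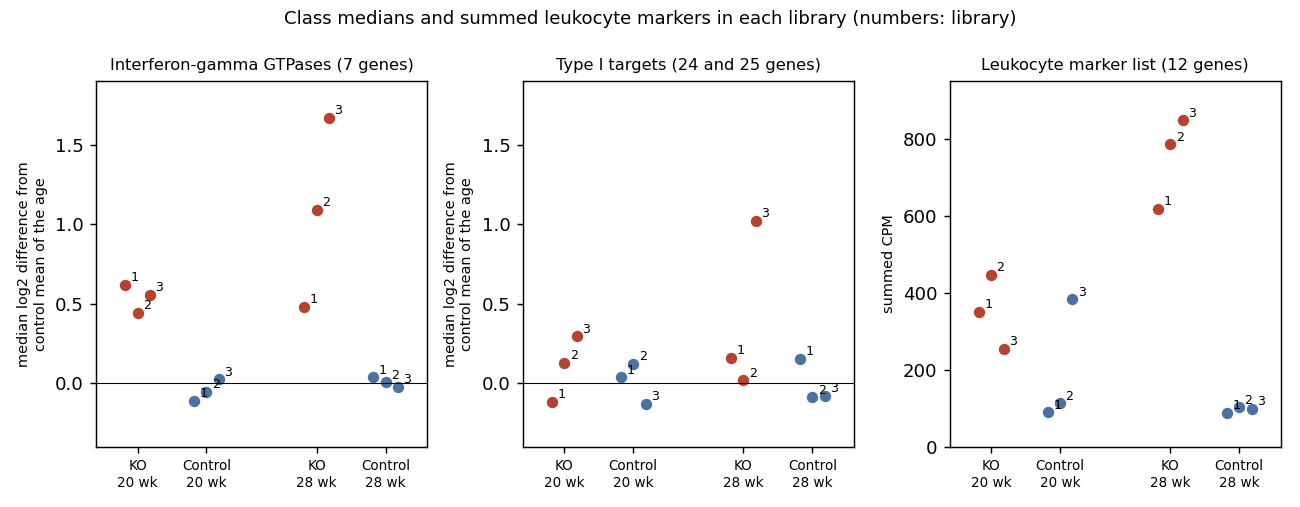
The left and middle panels give, for each library (points numbered 1 to 3), the median log2 difference from the control mean of its age over the 7 GTPases and over the 24 (20 weeks) or 25 (28 weeks) tested type I targets; the right panel gives the summed CPM of 12 leukocyte markers. In the 28-week knockouts the GTPase medians are 0.48, 1.09 and 1.67 and the type I medians 0.16, 0.02 and 1.02.

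The 28-week median of the type I targets rested on 1 library. Knockout library 3 was the highest knockout library for 25 of 34 members (73.5%), against 34.2% of all genes tested, and control library 1 was the highest control for 22 of 34 (64.7%), against 52.1% of all genes. Without knockout library 3 the median log2 fold change was -0.06 for the type I targets and 0.61 for the GTPases, and 6 members were called higher (Gbp2, Ifi27, Ifi35, Irgm1, Isg15 and Tgtp1) while Ifit2 and Parp14 were called lower, against 6.63% and 11.9% of all genes. Without control library 1 the medians were 0.84 and 1.23, a difference of -0.40 between the classes. Stat2, Irf9, Oasl2, Cxcl10, Rsad2 and Ifitm3 all had their highest 28-week knockout level in library 3. At 20 weeks the count of members called higher was 5 without knockout library 1 (Irf7 and Isg15 passed as well; 5.10% of all genes) and 1, Tgtp1, without knockout library 2 (2.27%) or without knockout library 3 (1.86%); the class difference was -0.61 without control library 1 and -0.15 without control library 2. Ifi27 at 20 weeks missed the threshold without knockout library 2 or 3 or control library 1 (edgeR adjusted p 0.055 to 0.074), and Ifit1 without knockout library 2 or 3 or control library 2 (0.050 to 0.067). With control libraries 2 and 3 of 28 weeks summed, or with either left out, 5 members were called higher (Gbp2, Ifi27, Ifi35, Isg15 and Tgtp1), against 2.90% to 2.98% of all genes. Of the other 4 calls at 28 weeks, Ifit1 and Usp18 were also lost without knockout library 2 or 3, Ddx60 without knockout library 3 or control library 1, and Irgm1 without knockout library 2 or control library 1, with edgeR adjusted p between 0.052 and 0.10.

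**Figure D4:**
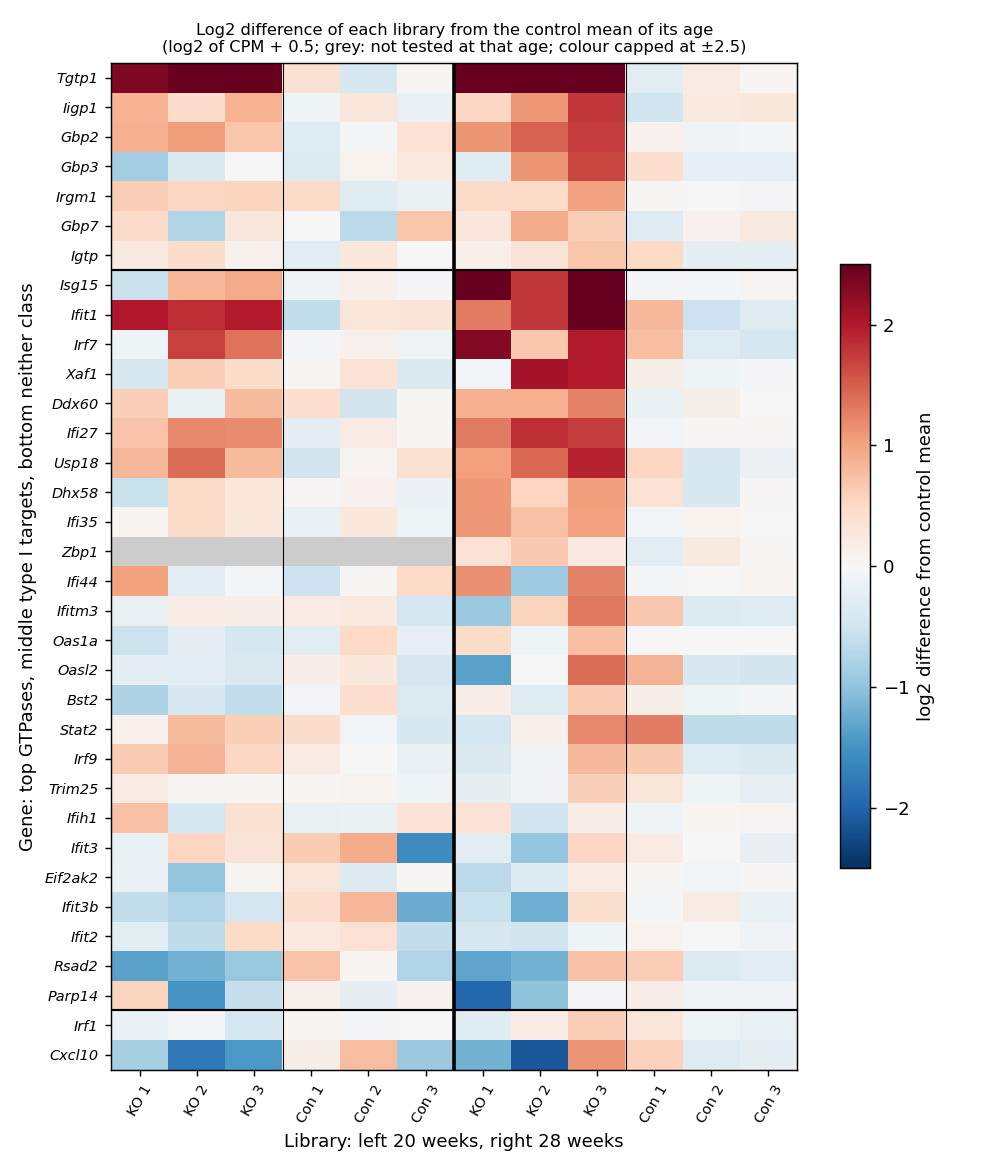
Log2 difference of each library (columns) from the mean of the controls of its age, for each tested member (rows), on log2 of CPM + 0.5; red is higher, blue lower, grey not tested at that age, and knockout columns stand left of the controls of the same age. Tgtp1, Gbp2 and Ifi27 are red in all 6 knockout columns, whereas Stat2, Irf9 and Oasl2 are red in knockout library 3 and control library 1 of 28 weeks.

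The change with age was tested in a model of all 12 libraries. Over the 34 members tested the median change of the knockout effect from 20 to 28 weeks was 0.53 on the log2 scale, against 0.05 over all genes. No member was called for a change of the knockout effect between the ages, where 0% of all genes were called either. The smallest adjusted p among the members was 0.54 in edgeR, and DESeq2 called 0. At an unadjusted p below 0.05, 6 members had a larger effect at 28 weeks and none a smaller one, against 9.12% of all genes in either direction. The effect on Isg15 was larger by 1.94 on the log2 scale at 28 weeks (SE 0.51), that on Ifi35 by 0.71 (SE 0.22) and that on Ifi27 by 0.64 (SE 0.25). The edgeR adjusted p was 0.54 for each. For 28 against 20 weeks in knockouts, 11 members were higher at an unadjusted p below 0.05 and none lower, against 11.2% of all genes in either direction; none passed adjustment in edgeR (0% of all genes did), and DESeq2 called 1. In controls, Ifit1 and Usp18 were higher at 28 weeks at an unadjusted p below 0.05, against 2.98% of all genes, and none passed adjustment (0% of all genes did; DESeq2 also called 0). Ifit1 in controls averaged 2.11 ± 1.39 CPM at 28 weeks and 0.626 ± 0.362 CPM at 20 weeks (SD, n = 3 each). Age coincides with the deposited table, so age and any difference in handling between the tables cannot be told apart.

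The genes around the members in the pathway gave calls in both directions. Interferons themselves were hardly seen: of 15 ligand and receptor genes 6 were tested at each age, all receptor chains, and Ifnb1, the gene for interferon-beta, had 1 count over the knockouts and 1 over the controls at 20 weeks. Receptors moved apart. Ifnlr1, the specific chain of the interferon-lambda receptor, had 4.73, 2.64 and 2.19 CPM in knockouts against 23, 13.4 and 13.6 CPM in controls at 20 weeks. Ifnlr1 levels at 28 weeks were 3.7, 1.85 and 3.94 CPM in knockouts against 18.4, 17.9 and 18 CPM in controls. It was lower at both ages (log2 fold change -2.39, SE 0.37, adjusted p = 0.0090, and -2.51, SE 0.31, adjusted p = 0.0049), with every knockout library below every control. At 28 weeks Il10rb, the chain that Ifnlr1 pairs with, averaged 95.9 ± 4.08 CPM in knockouts and 58.7 ± 4.22 CPM in controls (log2 fold change 0.71, adjusted p = 0.0073). The interferon-gamma receptor chains went opposite ways at that age: Ifngr2 averaged 192 ± 3.28 CPM in knockouts and 122 ± 8.76 CPM in controls (log2 fold change 0.65, adjusted p = 0.0091), and Ifngr1 104 ± 8.01 CPM in knockouts and 142 ± 9.94 CPM in controls (-0.45, 0.035; SD, n = 3 each). At 20 weeks 0 of the 6 were higher and 1, Ifnlr1, was lower, against 4.79% and 5.13% of all genes. At 28 weeks 2 were higher and 2 lower, against 9.33% and 11.9% of all genes.

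Of 13 kinases and adaptors, 1 was higher and 1 lower at 28 weeks. For this and the following lists, 9.33% of all genes were called higher and 11.9% lower at 28 weeks. The 20-week shares were 4.79% and 5.13%, or 12.1% and 13% at an unadjusted p below 0.05 in edgeR. Mavs, the mitochondrial adaptor of the RNA sensors, averaged 30.7 ± 4.13 CPM in knockouts and 61.3 ± 8.9 CPM in controls at 28 weeks (adjusted p = 0.0096), and Irf3, the factor that Mavs signals to, 68.3 ± 7.73 CPM in knockouts and 49 ± 1.73 CPM in controls (0.48, 0.036; SD, n = 3 each). Of 8 nucleic acid sensors tested at each age, none was called at 20 weeks (0 at an unadjusted p below 0.05 in edgeR), and at 28 weeks Tlr7 (log2 fold change 1.40, adjusted p = 0.010) and Ifi204 (1.53, adjusted p = 0.0070) were higher. Both are best known from immune cells. Of 9 negative regulators, none was called at 20 weeks (1 higher and 1 lower at an unadjusted p below 0.05 in edgeR) and Ptpn6, a phosphatase of blood and epithelial cells, was lower at 28 weeks (-1.19, adjusted p = 0.031).

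Further targets also gave calls in both directions at 28 weeks, where 9.33% of all genes were called higher and 11.9% lower. The 20-week shares of all genes were 4.79% and 5.13%, or 12.1% and 13% at an unadjusted p below 0.05 in edgeR. Of 24 other type I targets tested at each age, none was higher and 2 were lower at 20 weeks (Oasl1 and Samd9l; 3 higher and 4 lower at an unadjusted p below 0.05 in edgeR). At 28 weeks 5 were higher (Rtp4, Ifitm2, Herc6, Parp9 and Phf11d) and Oasl1 was lower. The median log2 fold changes were 0.03 and 0.37. Rtp4, a receptor-transporting protein strongly induced by type I interferon, had 13.3, 10.3 and 15.4 CPM in knockouts against 2.05, 2.07 and 2.01 CPM in controls at 28 weeks (log2 fold change 2.67, SE 0.22, adjusted p = 0.0025). Oasl1, which restrains translation of Irf7 in mice, was lower at both ages, with 0.225 ± 0.0472 CPM in knockouts and 1.65 ± 0.17 CPM in controls at 20 weeks (log2 fold change -2.85, adjusted p = 0.0060) and 0.504 ± 0.227 CPM in knockouts and 1.98 ± 0.477 CPM in controls at 28 weeks (-1.96, 0.024; SD, n = 3 each). Ifitm2, a relative of Ifitm3, averaged 221 ± 28.7 CPM in knockouts and 127 ± 8.32 CPM in controls at 28 weeks (0.80, adjusted p = 0.010). Of 8 other interferon-gamma GTPases tested at each age, none was called at 20 weeks (3 higher and 1 lower at an unadjusted p below 0.05 in edgeR). The 8 were not all the same genes at both ages. Gbp4 was not tested at 20 weeks, where it had 2 counts over the knockouts and 139 over the controls, every knockout library below every control. At 28 weeks Ifi47 (log2 fold change 1.71, adjusted p = 0.0067) and Tgtp2 (3.20, 0.019) were higher and Gbp4 (-2.18, 0.014) was lower, the last with 14 counts over the knockouts and 79 over the controls. The median of the 8 tested at each age was -0.08 at 20 weeks and -0.06 at 28 weeks, against 0.53 and 1.16 for the 7 members. Neither list is a sample of the class, and the difference was not tested. Among these targets outside the members the type I median was above the GTPase median at both ages, the reverse of the order among the members.

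Markers of some other cells moved with genotype in the same libraries. Summed over the 12 leukocyte markers the level was 618 to 848 CPM in knockouts against 87.9 to 102 CPM in controls at 28 weeks, and 254 to 446 CPM in knockouts against 89.7 to 383 CPM in controls at 20 weeks. Most of it was Lyz2, a lysozyme of myeloid cells, at 505, 661 and 785 CPM in knockouts against 48.5, 51.1 and 48.8 CPM in controls at 28 weeks. Without Lyz2 the sum was 113, 125 and 62.8 CPM in knockouts against 39.5, 51.4 and 50.6 CPM in controls at 28 weeks. That sum at 20 weeks was 79.4, 53.9 and 31.2 CPM in knockouts against 36.7, 40.8 and 181 CPM in controls. Of the 10 leukocyte markers tested, 4 were higher at 28 weeks (Lyz2, Adgre1, Tyrobp and Fcer1g) and none was called at 20 weeks, while Ptprc, the pan-leukocyte surface marker, overlapped between the groups at both ages. Csf1r, on the same list, went the other way. It averaged 7.41 ± 2.96 CPM in knockouts and 15.9 ± 2.21 CPM in controls at 20 weeks, every knockout library below every control. Its log2 fold change was -1.10 at 20 weeks (edgeR adjusted p = 0.068) and -0.49 at 28 weeks, where the groups overlapped. The T-cell marker Cd3e had no count in any knockout library and the B-cell marker Cd79a at most 2 counts over the knockouts of an age. Knockout library 3 of 28 weeks, the highest for most members, had the highest sum of all 12 markers among the knockouts of that age (848 CPM, against 618 and 786 CPM in knockout libraries 1 and 2) and the lowest sum without Lyz2. Control library 3 of 20 weeks had the highest sum without Lyz2 of all 12 libraries. It was the highest control of its age for 7 of 33 tested members (Gbp2, Gbp3, Gbp7, Usp18, Ifit1, Ifi44 and Ifih1), 21.2% against 34.7% of all genes tested. Mesangial and smooth muscle markers were higher in 8 of 9 at 20 weeks (9431 to 13299 CPM in knockouts against 4161 to 4664 CPM in controls). At 28 weeks 4 of 9 were higher (6744 to 15373 CPM in knockouts against 2826 to 3098 CPM in controls). Podocyte markers were higher in 6 of 10 at 20 weeks (2407 to 3512 CPM in knockouts against 754 to 1515 CPM in controls). At 28 weeks 1 of 10, Nphs1, was lower (641 to 2681 CPM in knockouts against 1095 to 2392 CPM in controls). Tubule and parietal markers were lower in 4 of 11 at 20 weeks (426 to 2143 CPM in knockouts against 2979 to 6020 CPM in controls). At 28 weeks 2 of 12 were lower (196 to 7448 CPM in knockouts against 3785 to 6943 CPM in controls). Endothelial sums overlapped between the groups at both ages. They were 68.1 to 112 CPM in knockouts against 64.9 to 76.6 CPM in controls at 20 weeks, where 1 of 8 markers was higher. At 28 weeks they were 43.6 to 134 CPM in knockouts against 91.1 to 95.8 CPM in controls, and 1 of 8 was lower. Of 4 plasmacytoid dendritic cell markers only Bst2, itself a member, was tested, and it did not pass. The part of all these cells in the members' levels was not tested.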

How the data were processed

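Podocyte RNA was turned into libraries with a SMARTER mRNA kit, per the labels' protocols, and all 12 carry 1 batch label. The authors deposited raw read counts per gene symbol, in a table for each age, and FPKM tables, which divide each count by 1 length per gene and the column total (checked within a relative tolerance of 1e-06). The genome build was GRCm38 (mm10), per the submitters' processing notes; for the aligner, counting program and strand setting, nothing is given in the sources used here.

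Each age was fitted alone in edgeR 4.0.16 (R 4.3.3) with TMM scaling, filterByExpr defaults and the quasi-likelihood F test, adjusted by Benjamini-Hochberg over all 14853 genes tested at 20 weeks and 15011 at 28 weeks. SE is the log2 fold change over the square root of F. Contrasts between ages came from 1 model of 12 libraries and 15662 genes. Alternatives were DESeq2 1.42.0, RLE scaling, other filters on low counts, limma 3.58.1 on log2(FPKM + 0.1) and log2(FPKM + 1), a model of 12 libraries, a replicate block, the near-identical controls summed, and each library left out. The edgeR fit was tested on simulated data.

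The members, the gene lists and the tests were chosen with earlier results of these data known. Every member is accounted for; values in each library are given for members called at either age, the 3 with the highest mean FPKM, and Stat2, Irf9, Irf1, Irf7, Igtp, Irgm1, Gbp2 and Isg15. Pathway genes outside the members are given as counts per list, with up to 3 called genes named; Ifngr1, Samd9l, Herc6, Parp9 and Phf11d were named after their values were seen. A result among the kinases and adaptors and a podocyte marker are not reported here. Promoters were RefSeq windows (GRCm38.p6), and positions and shared 50-base stretches came from GENCODE M21. Deviations of libraries with the same replicate number correlated between -0.57 and 0.32, so the numbers were not taken to pair the libraries.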

Additional observations from a re-analysis of the deposited data

How the results depend on the processing

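Over 32 values of single members and 463 alternatives, 398 kept their direction and their side of the threshold, 36 kept the direction and missed it, 12 passed it, and 17 changed sign. Tgtp1 passed at both ages, and Ifi27 and Isg15 at 28 weeks, under every alternative run. Counts of members called higher at 20 weeks were 3, 6 in DESeq2, and 1 to 5 with a library left out, where 4.79%, 8.13% and 1.73% to 5.10% of all genes were called higher; counts called lower were 0, 2 in DESeq2 and 2 with no filter (Cxcl10 and Rsad2 both times), and 0 to 3 with a library left out. At 28 weeks the count called higher was 9, 3 with the replicate block (Ifi27, Isg15 and Tgtp1), 5 with control libraries 2 and 3 summed, and 5 to 11 with a library left out. Over all genes the share called higher at 28 weeks was 9.33%, 0.573% with the block, 2.98% with the controls summed and 2.90% to 9.59% with a library left out. Members called lower were 0, and 0 to 2 with a library left out. The block at 20 weeks left 3 called, against 3.50% of all genes. The type I median minus the GTPase median was -0.32 at 28 weeks in limma on log2(FPKM + 1), and ran from -0.61 to -0.15 at 20 weeks and from -0.96 to -0.40 at 28 weeks with a library left out. For 28 against 20 weeks in knockouts DESeq2 called 1 member. The replicate numbers were not taken to pair the libraries, so a call lost under the block is not read as a weaker effect.

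Signs changed only for members that did not pass. Ifitm3 at 20 weeks was -0.031 with at least 1 CPM in 3 libraries, -0.032 in limma on log2(FPKM + 0.1), -0.032 on log2(FPKM + 1) and -0.0073 in the model of 12 libraries, and ran from -0.16 to 0.16 with a library left out. With controls 2 and 3 of 28 weeks summed, Stat2 was -0.16 and Irf9 -0.033. With a library of 28 weeks left out, Ifitm3 ran from -0.12 (without knockout library 3) to 0.92, Bst2 from -0.12 to 0.40, Stat2 from -0.48 to 1.13, Irf9 from -0.34 to 0.55 and Irf1 from -0.088 to 0.41. The causes were not tested. Counts limit Oas2, Oas3, Zbp1 and Ddx60, the last with 161 counts over the 6 libraries of 28 weeks.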
